A study of Mus musculus with 2 samples.

Results

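The genes described here belong to the BMP, TGF-beta and activin pathway and were chosen by symbol alone. They are the genes whose symbols start with Bmp (followed by a digit or r), Tgfb, Smad, Smurf, Acvr, Inhb, Gdf (with a digit), Chrd, Grem, Lefty, Fst or Ltbp, together with Inha, Nog, Nodal, Bambi, Tdgf1 and the Id genes, each read by a probe annotated to a single gene. The rule found 62 genes, each with 1 probe, among 13697 genes named on the array. The symbol rule uses no measured value, though it was proposed with earlier results of these data known. A few genes matched by their symbol stem were given no pathway role here. These are Bmp2k, a kinase, Fstl1 and Fstl4, which are follistatin-like secreted proteins, and Tgfbi, a matrix protein that TGF-beta induces. Fstl1 and Fstl4 are thus not counted among the secreted antagonists and modulators below. They are counted with the 62, as the rule asks. Smad4, Smad7, Fst, Id2 and Id3 were not analysed here.

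The arrays measured RNA of mouse embryoid bodies, clumps of embryonic stem (ES) cells that differentiate in suspension. One group was grown from Elongin A+/+ ES cells, labelled as carrying both copies of the gene, and the other from Elongin A-/- ES cells, labelled as lacking it. Both were exposed to 2 µM retinoic acid, a signal that pushes ES cells towards neural fates, and were collected at day 4, and both were grown in serum with the N2 supplement. There was 1 array per genotype, so no difference has an error between cultures, no test was made, and an effect of genotype cannot be told apart from one of the cell line, the culture or the array. The arrays are called by their labels, the +/+ array and the -/- array, and each direction rests on those labels. The labels name neither the ES cell clone nor the number of embryoid bodies pooled.

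BMPs, TGF-betas, activins and nodal are secreted dimers that bring together type I and type II receptor kinases. The type I receptor phosphorylates receptor SMADs, SMAD1, SMAD5 and SMAD9 below BMPs and SMAD2 and SMAD3 below TGF-betas, activins and nodal, which enter the nucleus and switch genes such as Id1 on. Secreted antagonists hold the ligands in check, and in the early embryo BMP activity favours epidermis and mesoderm while its antagonists favour neural tissue.

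Each array carried 32440 probes, and Pearson's r between their log2 values was 0.932 across probes, which are not independent replicates. Intensities are given after quantile normalisation, and the floor is their median over all probes, 1.03. A gene counts as measured when 1 or both arrays put it above the floor. Where 1 array lay under the floor the difference is a bound, written as "at least". Log2 differences are the -/- array minus the +/+ array. Probes for the same gene disagreed with an SD of 0.43 on the log2 scale (224 genes), the only error these arrays hold. It comes from genes with several probes above the floor on both arrays, whereas each pathway gene has 1 probe. It is a rough scale and does not measure variation between arrays or cultures. Eloa, which encodes Elongin A, gave 3.87 on the +/+ array and 3.57 on the -/- array, and the place of its probe relative to the deletion is unknown here, so it does not check the labels. Neural markers were present on both arrays: 12 of 13 named were measured, among them Tubb3 (179 and 168), Sox2 (72.2 and 39.5) and Pax6 (9.32 and 12.9), while Map2 lay below the floor on both. Their summed intensity was 421 on the +/+ array and 277 on the -/- array, with 5 at least 2-fold lower and none higher.

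Of 42 measured genes, 23 lay above the floor on both arrays and within 2-fold, and 13 more had a bound under 2-fold, which does not limit how far apart they are. Tgfbi, Inhba and Gdf10 were higher on the -/- array, Chrdl1 and Acvrl1 were above the floor there only, and Grem1 was lower. Those 5 higher genes are 11.9% of the measured pathway genes, where 6.76% of all 9568 measured genes were at least 2-fold higher. The 1 lower gene is 2.38%, where 5.97% of all measured genes were at least 2-fold lower. The differences ran both ways, with 21 genes above 0 and 21 below, a median of -0.01 and a range from -1.65 to 1.86, beside a median of -0.02 over all measured genes. The sign of the pathway median turned with the values as deposited (0.13). Higher genes made up 53.1% of all measured genes at least 2-fold apart, and 64.0% with the values as deposited. With those values 6 pathway genes were higher and 1 lower, beside 8.36% and 4.7% of all measured genes. The other 20 genes lay below the floor on both arrays, 32.3% of the 62 against 30.1% of all named genes.

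How near a gene lies to the floor bears on these counts. Of the 27 pathway genes above the floor on both arrays, 3 were at least 2-fold higher and 1 lower, where 5.23% of all genes above the floor on both arrays were higher and 4.66% lower, 9.9% in all. The other 15 were bounds, 9 above the floor only on the +/+ array and 6 only on the -/- array. Of these 15 bounds 2 reached 2-fold, both higher, where 23.2% of all such genes reached it in either direction. With no floor, 8 of the 62 were higher and 12 lower (12.9% and 19.4%), where 1506 of all 13697 named genes were higher and 1414 lower. The 12 lower were Acvr1b, Bmp2k, Bmp3, Bmp5, Bmp8a, Bmpr1b, Grem1, Id4, Ltbp4, Nodal, Nog and Smad3, and only Grem1 among them lay above the floor on both arrays.

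**Figure D1:**
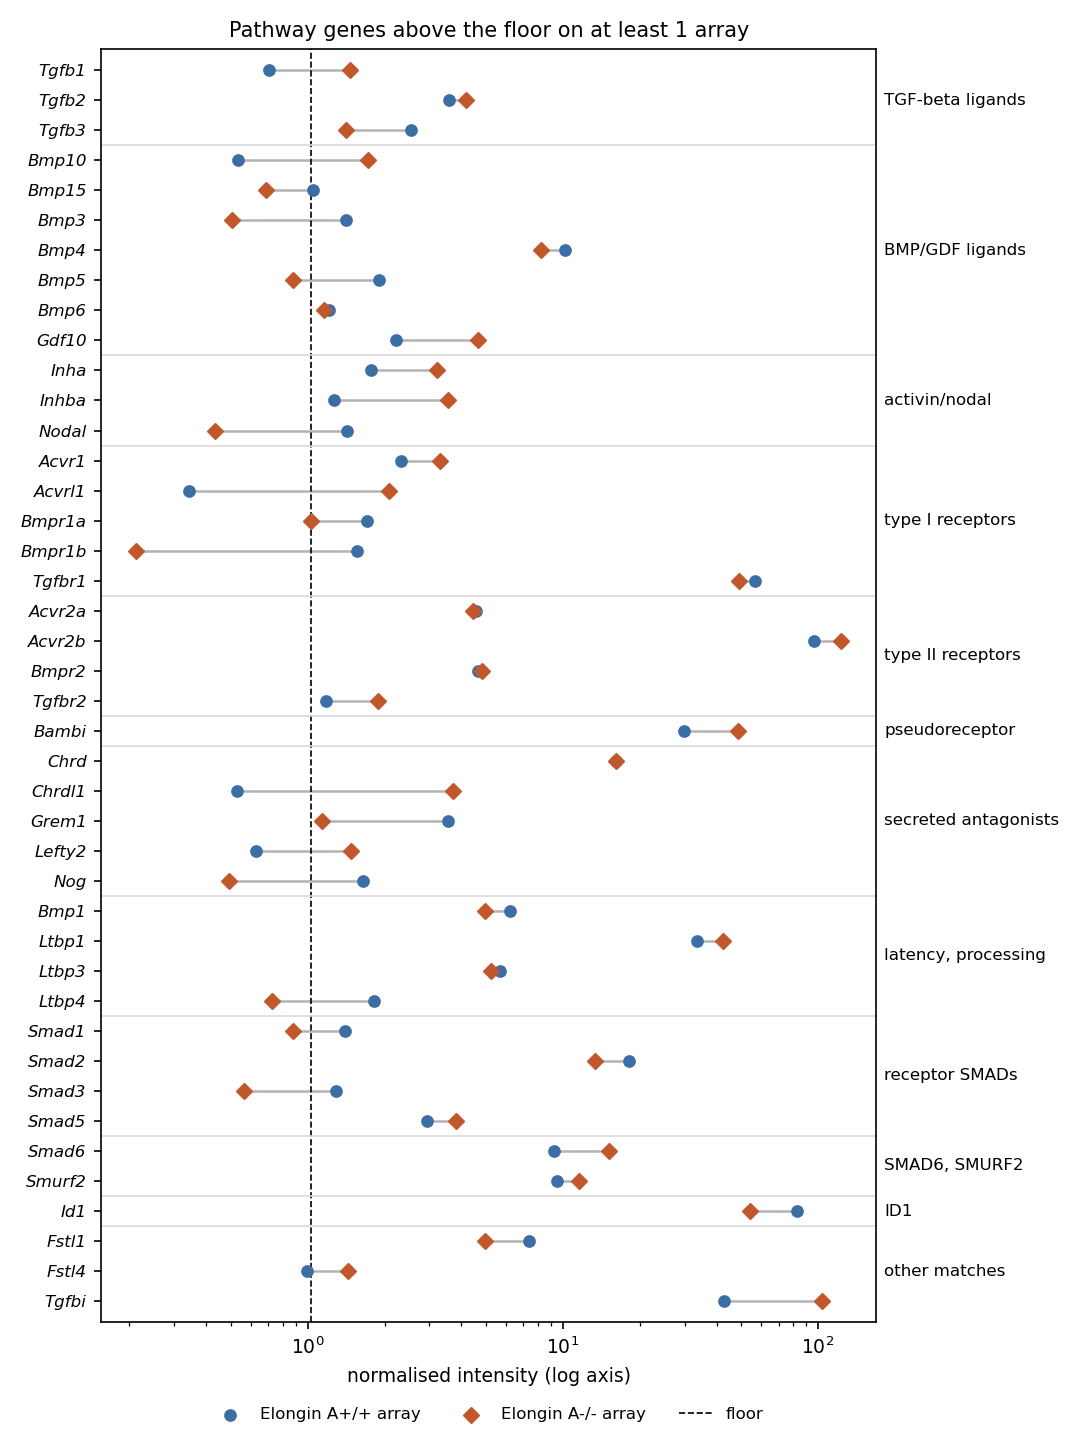
Normalised intensity (log axis) of the 42 measured pathway genes on the +/+ array (circles) and the -/- array (diamonds), ordered by role, with the floor of 1.03 as a dashed line. Each symbol is 1 array, and the longest lines, such as those of Bmpr1b, Acvrl1 and Chrdl1, cross the floor.

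**Figure D2:**
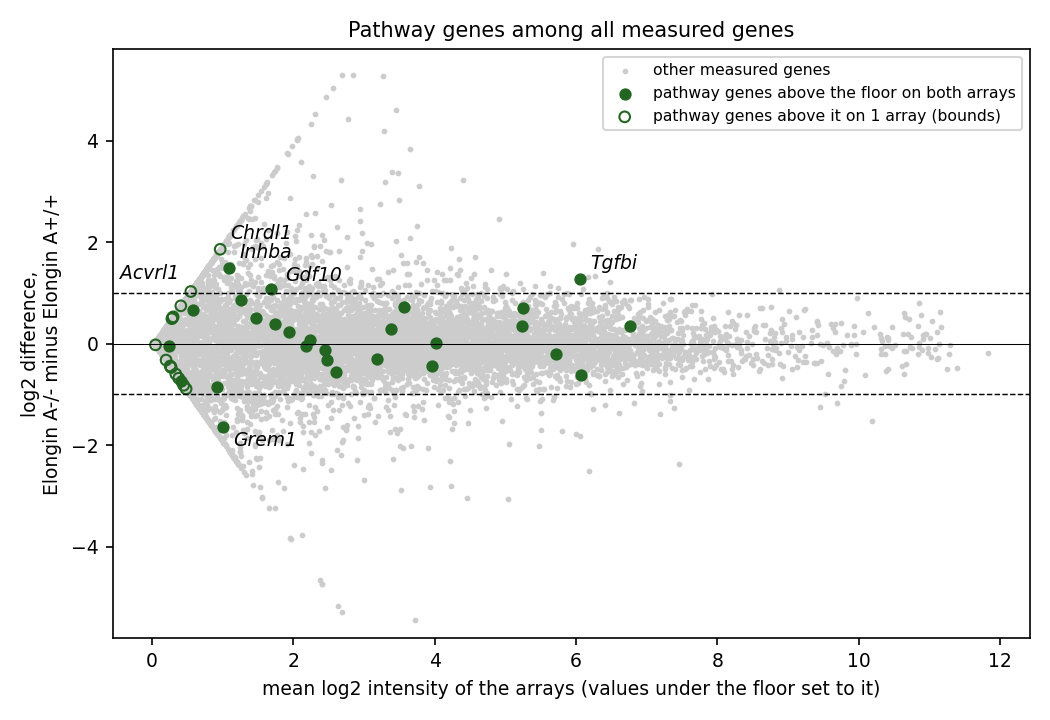
Log2 difference, Elongin A-/- minus Elongin A+/+, against mean log2 intensity for all 9568 measured genes (grey) and the pathway genes (green, open where the difference is a bound). The dashed lines mark 2-fold, and 6 pathway genes, which are named, lie beyond them.

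Promoters are shown for the genes at least 2-fold apart that the RefSeq promoter table (GRCm38.p6) holds, as the stretch of 250 bases before the annotated start, 5′ to 3′ in the direction of transcription. They are Gdf10 at chr14:33923337-33923586 (plus strand), Inhba at chr13:16011601-16011850 (plus strand), Grem1 at chr2:113758649-113758898 (minus strand) and Tgfbi at chr13:56609336-56609585 (plus strand). Capitals mark matches to the motifs searched.
Gdf10: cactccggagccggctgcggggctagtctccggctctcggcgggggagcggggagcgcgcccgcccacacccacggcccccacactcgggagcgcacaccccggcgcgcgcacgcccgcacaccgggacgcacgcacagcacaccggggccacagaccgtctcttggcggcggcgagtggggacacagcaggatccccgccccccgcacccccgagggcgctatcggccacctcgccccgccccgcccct
Inhba: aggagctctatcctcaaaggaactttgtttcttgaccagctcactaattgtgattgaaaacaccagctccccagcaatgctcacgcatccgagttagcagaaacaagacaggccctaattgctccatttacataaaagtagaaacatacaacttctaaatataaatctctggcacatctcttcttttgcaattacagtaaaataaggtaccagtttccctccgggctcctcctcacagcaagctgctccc
Grem1: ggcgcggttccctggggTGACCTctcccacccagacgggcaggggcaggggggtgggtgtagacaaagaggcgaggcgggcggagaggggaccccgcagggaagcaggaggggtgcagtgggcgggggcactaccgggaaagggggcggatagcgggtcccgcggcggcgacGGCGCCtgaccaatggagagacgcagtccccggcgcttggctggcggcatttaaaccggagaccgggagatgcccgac
Tgfbi: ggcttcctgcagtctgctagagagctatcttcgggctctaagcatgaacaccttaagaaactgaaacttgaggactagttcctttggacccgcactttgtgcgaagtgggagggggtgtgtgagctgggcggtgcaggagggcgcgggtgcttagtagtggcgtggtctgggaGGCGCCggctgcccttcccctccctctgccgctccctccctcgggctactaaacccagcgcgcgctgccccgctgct

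The motifs searched, on both strands, were GTCTAGAC, the palindrome bound by SMAD3 and SMAD4, GGCGCC, a GC-rich element bound by SMADs, CAGACA, which holds a SMAD box, and AGGTCA, a half-site of nuclear receptors such as those for retinoic acid. No motif lies within another. GGCGCC began 78 bases before the start of Grem1 and 77 before that of Tgfbi, and AGGTCA lay 233 bases before the start of Grem1, on the opposite strand. The windows of Gdf10 and Inhba held none of these motifs. They differ in base composition, with 78.8% G and C in Gdf10 and 43.2% in Inhba. GGCGCC stood in 9.59% of all 32851 windows of this length and in 24.5% of the 53 windows of 45 pathway genes, whose median G and C content was 64.4% against 52.4% over all windows. CAGACA stood in 17.1% of all windows and 18.9% of those of pathway genes, AGGTCA in 14.0% and 7.55%, and GTCTAGAC in 0.167% of all windows and none of the 53. Such a match describes the sequence and is not evidence of binding.

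Among the TGF-beta ligands, Tgfb2 had intensities of 3.57 on the +/+ array and 4.16 on the -/- array. Tgfb3 had 2.54 and 1.41, a log2 difference of -0.85 that stays inside 2-fold but exceeds the disagreement between probes. Tgfb1 was above the floor only on the -/- array (0.706 and 1.46), at least 1.42-fold higher. Tgfb1 and Tgfb3 thus ran in opposite directions, while Tgfb2 differed by 0.22, within the disagreement between probes. Tgfb1 lay near the floor, and with no floor it passed 2-fold (1.05).

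BMP and GDF ligands were mostly dim on both arrays, with 8 of 15 below the floor on both. These 8 were Bmp2, Bmp7, Bmp8a, Bmp8b, Gdf2, Gdf5, Gdf6 and Gdf9. Bmp4, the ligand that induces mesoderm and epidermis in the early embryo, had 10.2 and 8.18, a log2 difference of -0.31 that is within the disagreement between probes. Gdf10, a BMP3-related ligand, had 2.21 on the +/+ array and 4.65 on the -/- array, 2.10-fold higher and just past the 2-fold line. Bmp5 was above the floor only on the +/+ array (1.91 and 0.878) and was at least 1.86-fold lower. Bmp10, a ligand of the developing heart, was above it only on the -/- array (0.534 and 1.72), at least 1.67-fold higher. Bmp3 (1.41 and 0.505), Bmp6 (1.21 and 1.16) and Bmp15, an oocyte factor (1.05 and 0.684), were near the floor, so their differences say little.

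Of the activin and inhibin subunits, Inhba was at least 2-fold higher on the -/- array. Inhba encodes the beta A subunit whose dimer is activin A. It had 1.27 on the +/+ array and 3.55 on the -/- array, 2.79-fold higher, with the first value close to the floor. Inha, the alpha subunit that turns an activin dimer into the antagonist inhibin, had 1.78 and 3.22, a log2 difference of 0.86 just inside 2-fold. Nodal, the ligand of mesendoderm induction and left-right patterning, had 1.42 and 0.434 and was at least 1.39-fold lower. Gdf3, Inhbc and Inhbe lay below the floor on both arrays, as did Tdgf1, the gene of the nodal co-receptor Cripto.

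Of the type I receptors, Acvrl1 was the one past 2-fold. It encodes ALK1, the endothelial receptor for BMP9 and BMP10, and had 0.343 on the +/+ array and 2.09 on the -/- array, at least 2.04-fold higher. Bmpr1b, a BMP receptor, lay on the other side, with 1.56 and 0.213, at least 1.52-fold lower, a bound set by the dim value on the +/+ array, and its log2 difference was -2.87 with no floor, where that of Acvrl1 was 2.61. Bmpr1a, the widely expressed BMP receptor, had 1.71 and 1.03, a log2 difference of -0.73 that ends at the floor, and Acvr1 had 2.33 and 3.31. Tgfbr1, the TGF-beta type I receptor, was bright on both arrays (56.5 and 48.8) and differed by -0.21. Acvr1b, the activin type I receptor, lay below the floor on both.

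Most measured blood and endothelial markers moved with Acvrl1. Of 21 such markers on the array 15 were measured, 12 above 0 and 3 below. Of these 15, 11 exceeded 2-fold on the side of the -/- array and 0 on the other. The summed intensity of the 21 was 19.7 on the +/+ array and 192 on the -/- array. Spi1 (1.76 and 0.345), Lyl1 (1.17 and 0.359) and Klf1 (1.52 and 0.923) went the other way, above the floor only on the +/+ array. Kdr had 2.23 and 54.4, Tek was at least 4.70-fold and Pecam1 at least 4.02-fold higher, while the defining markers Cdh5, Tie1, Erg, Ets1, Gata1 and Ptprc lay below the floor on both arrays. Eng, the endoglin co-receptor that works with ALK1, had 2.42 and 3.65. The part of these markers in the values of Acvrl1 and other pathway genes was not tested. In bulk RNA a change in the number of cells of a type and a change in RNA per cell cannot be told apart.

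The type II receptors lay above the floor on both arrays and within 2-fold. Acvr2b, an activin receptor, had 96.8 and 123, Acvr2a had 4.58 and 4.45, and Bmpr2, the BMP receptor, 4.63 and 4.83. Tgfbr2, the TGF-beta receptor, was dimmer (1.18 and 1.88) and differed by 0.67. Over these 4 the median was 0.20, and the sign of Acvr2a turned with the values as deposited. Bambi, a pseudoreceptor that blocks signalling and is itself a BMP target, had 29.8 on the +/+ array and 48.5 on the -/- array, a log2 difference of 0.70. Tgfbr3, the betaglycan co-receptor, lay below the floor on both arrays.

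Secreted antagonists included genes past 2-fold in each direction. Chrdl1, a chordin-like BMP antagonist, had 0.527 on the +/+ array and 3.72 on the -/- array, at least 3.62-fold higher. Grem1, gremlin, which binds BMP2 and BMP4, had 3.56 and 1.14, 3.13-fold lower, with the lower value just above the floor. Nog, noggin, was above the floor only on the +/+ array (1.65 and 0.491), at least 1.61-fold lower. Chrd, chordin itself, had 16.2 on both arrays. Lefty2, a nodal antagonist, had 0.627 and 1.48 and was at least 1.44-fold higher, and Fstl3, a follistatin relative that binds activin, lay below the floor on both. The antagonists therefore did not share a direction, with 1 of 5 measured at least 2-fold higher and 1 lower.

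Of the genes that release or store ligands, Bmp1, Ltbp1 and Ltbp3 were within 2-fold. Bmp1 encodes the protease that cleaves chordin and procollagens and had 6.21 and 4.95. Ltbp1 and Ltbp3, latent TGF-beta binding proteins that hold the latent ligand in the matrix, had 33.7 and 42.6 and 5.69 and 5.22. Ltbp4 was above the floor only on the +/+ array (1.82 and 0.727), at least 1.77-fold lower (-1.32 with no floor), and Ltbp2 was below it on both.

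Of the receptor SMADs, Smad2 and Smad5 were within 2-fold. Smad2, below TGF-beta and activin, had 18.1 and 13.3, and Smad5, below BMPs, had 2.94 and 3.82. Smad1 (1.39 and 0.872) and Smad3 (1.29 and 0.565) were above the floor only on the +/+ array, at least 1.36-fold and at least 1.25-fold lower, and with no floor Smad3 passed 2-fold (-1.19). Smad9 lay below it on both arrays. The inhibitory genes Smad6 and Smurf2 were higher by less than 2-fold. Smad6, the inhibitory SMAD induced by BMPs, had 9.22 and 15.2, a log2 difference of 0.72. Smurf2, a ubiquitin ligase that targets SMADs and receptors, had 9.46 and 11.5. Its sign turned with chromosome medians removed, since measured genes of chromosome 11 had a median of 0.41. The same step moved Nog from -0.68 to -1.10 and Fstl4 from 0.49 to 0.08, both also on chromosome 11. Smad1, on chromosome 8 with a median of 0.43, moved from -0.44 to -0.87. Smurf1 lay below the floor on both arrays.

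Id1, the direct BMP target that blocks basic helix-loop-helix factors, had 83.0 on the +/+ array and 54.1 on the -/- array. Its log2 difference was -0.62, inside 2-fold but wider than the disagreement between probes, and it ranged from -0.68 to -0.55 over the settings tried. The BMP targets Smad6 and Bambi were higher (0.72 and 0.70), so these 3 targets did not share a direction. Id4 lay below the floor on both arrays. Tgfbi, a matrix protein named for its induction by TGF-beta, had 43.0 and 104, 2.41-fold higher, and it was the only one of the 6 genes past 2-fold that stayed measured with the floor at the 75th percentile. Mesenchymal markers are values to set beside it. Of 11 measured, 3 were at least 2-fold higher and 0 lower, with 7 above 0 and 4 below. Their summed intensity was 789 on the +/+ array and 1126 on the -/- array, and Vim (713 and 934) carries most of it. Without Vim the sums were 75.7 and 192, and Col3a1 (41.8 and 152) carries most of those. The part of these markers in the value of Tgfbi was not tested. Fstl1 had 7.38 and 4.97, and Fstl4 was near the floor (0.995 and 1.44).

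Divided by signalling arm, a grouping made after the values were seen, the pathway showed no common direction. Ligands, receptors and SMADs of the BMP arm, with the targets Id1, Id4 and Smad6, had a median of -0.05 over 13 measured genes of 22. Of these, 1 was at least 2-fold higher (Acvrl1) and none lower. Ligands, receptors, co-receptors and SMADs of the TGF-beta, activin and nodal arm had a median of -0.21 over 9 of 13, with 1 higher (Inhba) and none lower. No target was placed in that arm. Gdf10 (2.10-fold higher), Tgfbi (2.41-fold higher), Bmp3, Bambi, Inha, Acvr2a and Acvr2b were among the genes placed in neither arm, and the counts depend on that choice.

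The wider pathway was described with 42 further genes on the array, of which 32 were measured. These are ligands, modulators, co-receptors, adaptors and nuclear partners outside the symbol rule. Of the 32, 1 was at least 2-fold higher (3.12%) and 4 lower (12.5%), with a median of -0.10, beside 6.76% and 5.97% of all measured genes. All 4 lower genes encode secreted modulators of BMPs. Sostdc1, an antagonist of BMP and WNT, had 6.51 on the +/+ array and 1.10 on the -/- array, 5.93-fold lower. Its value on the -/- array was just above the floor. Bmper, the crossveinless homologue that binds BMPs, had 12.2 and 3.72, and Nbl1, the DAN antagonist, had 11.5 and 3.66. Twsg1, which binds BMPs together with chordin, had 2.11 and 1.04, 2.02-fold lower, a value at the edge of both the floor and 2-fold. The higher gene was Tll1, a protease of the BMP1 family that cleaves chordin, with 0.716 and 11.4, at least 11.1-fold higher.

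Counting the secreted antagonists and modulators of both lists together, a group made after the values were seen, 10 of 14 were measured. Of these, 5 were at least 2-fold lower (Sostdc1, Bmper, Grem1, Nbl1 and Twsg1) and 1 higher (Chrdl1), with a median of -0.85, beside 5.97% of all measured genes lower and 6.76% higher. All 5 lower genes were above the floor on both arrays, but Sostdc1 (1.10), Grem1 (1.14) and Twsg1 (1.04) barely cleared it on the -/- array. Cer1, Fstl3, Sost and Vwc2 lay below it on both, and Dand5, a nodal antagonist, had 1.97 and 3.34. Since the group was chosen with these values known, its count describes it and supports nothing further.

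Downstream targets outside the symbol rule numbered 23 on the array and 22 measured, of which 3 were at least 2-fold higher (13.6%) and 8 lower (36.4%), beside 6.76% and 5.97% of all measured genes, and several of them had been seen to differ before the list was made. Among targets of BMP signalling in ectoderm, Msx1 had 23.9 on the +/+ array and 5.75 on the -/- array, Msx2 had 19.5 and 6.03, Gata3 had 16.4 and 7.05, and Dlx5 (4.07 and 0.973) and Dlx3 (2.43 and 0.938) were at least 3.97-fold and at least 2.37-fold lower. Among genes induced by TGF-beta, Tagln, an actin-binding protein of smooth muscle, had 41.4 and 8.29, Ccn2, connective tissue growth factor, had 16.5 and 3.38, and Cdkn2b, a cell cycle inhibitor, had 7.73 and 2.50. In the other direction, Hey1, a Notch and BMP target of endothelium, had 4.35 and 16.9, Sox9, a cartilage and neural crest factor, had 2.03 and 6.01, and Col1a1 was at least 4.43-fold higher (0.854 and 4.55). Tgfbi, also induced by TGF-beta but counted with the genes chosen by symbol, was 2.41-fold higher. Genes induced by TGF-beta therefore did not share a direction. Of the 22 targets, 10 lay above 0 and 12 below. Their median was -0.03, and raising the floor to the 75th percentile made it -0.71. Hey1 is also expressed in endothelium and Col1a1 is one of the mesenchymal markers above, and the part of those cell types in their values was not tested.

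**Figure D3:**
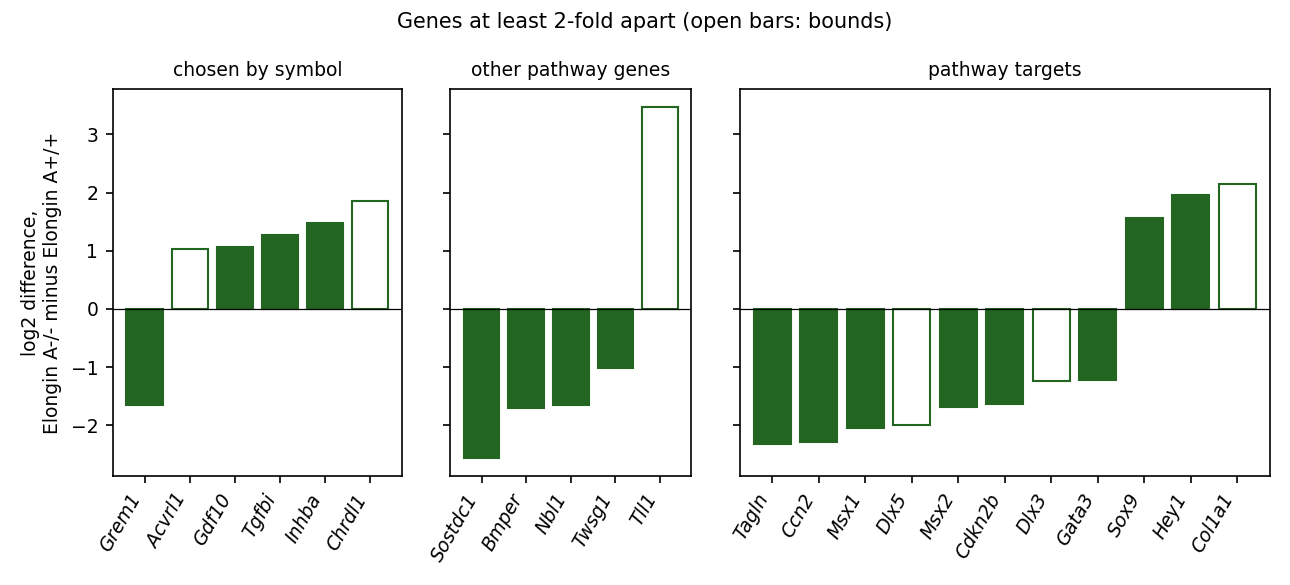
Log2 difference, Elongin A-/- minus Elongin A+/+, of every measured gene at least 2-fold apart among the genes chosen by symbol (6), the other pathway genes (5) and the pathway targets (11). Open bars are bounds, and the bars on the left and right of each panel show lower and higher genes.

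The 6 pathway genes past 2-fold were recomputed under other settings of scaling and floor. Chrdl1 ranged from 1.61 to 2.82, Acvrl1 from 1.02 to 2.61, Tgfbi from 1.22 to 1.37 and Grem1 from -1.67 to -1.08, each past 2-fold in every setting that measured it. Inhba ranged from 0.99 to 1.59 and Gdf10 from 0.81 to 1.23, and both fell short of 2-fold when a pseudocount replaced the floor. Of the 42 measured genes 37 kept their sign in every setting that measured them. The other 5, Acvr2a, Bmp6, Chrd, Ltbp3 and Smurf2, all differed by less than the disagreement between probes. Only the scalings and the removal of chromosome medians could turn a sign. Changes of the floor and the pseudocount keep the order of the arrays' values, so the kept signs say nothing about those settings.

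**Figure D4:**
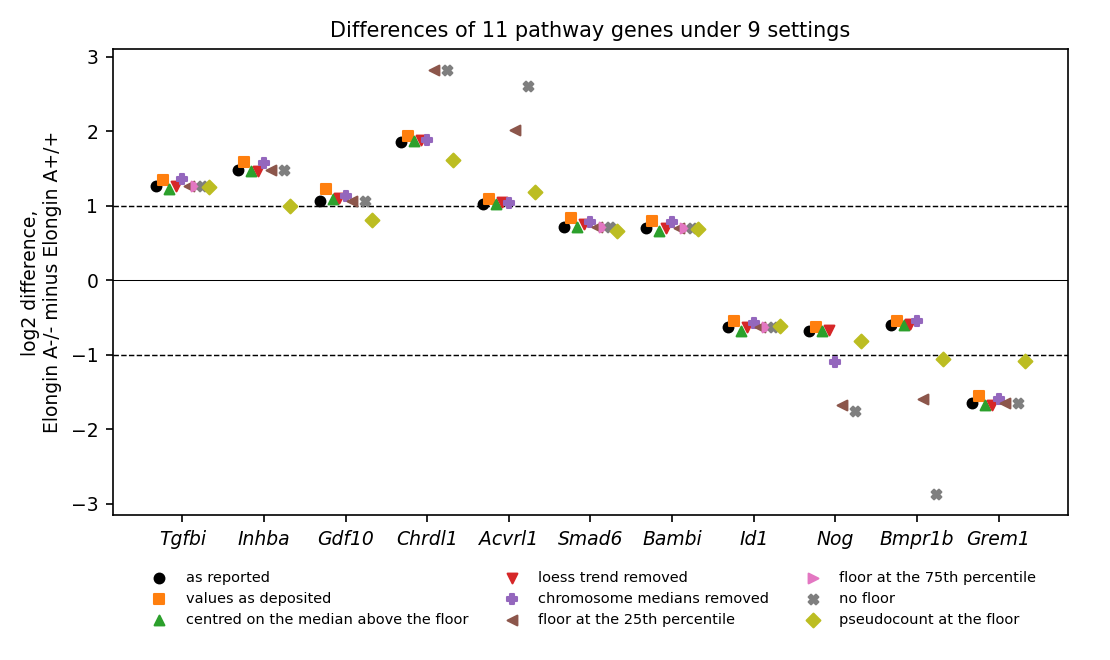
Log2 difference, Elongin A-/- minus Elongin A+/+, of 11 pathway genes under 9 settings of scaling and floor, 1 symbol for each setting, with dashed lines at 2-fold. Symbols of Tgfbi, Smad6, Bambi and Id1 lie close together, while those of Chrdl1, Acvrl1, Nog and Bmpr1b, which cross the floor, spread widely.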

How the data were processed

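The deposited values are intensities of 2 Applied Biosystems arrays, 1 per genotype, assigned by title. They are on a linear scale with medians of 1.02 and 1.03; how the authors normalised, background-corrected or filtered them is not stated. Probes were named from the platform annotation where it gives 1 symbol (14253 probes), and chromosomes came from RefSeq GRCm38.p6. Log2 percentiles of the arrays differed by up to 0.16, so the arrays were quantile normalised; this would hide a shift of most genes in 1 direction. Values under the floor (the median) were set to it before differences were taken, and genes were counted at 2-fold, with no test. A gene with several probes took the probe with the highest mean. Members and lists were chosen with earlier results of these data known. All measured members at least 2-fold apart are named, and other pathway genes and targets where 2-fold apart. The steps were tested on simulated data with differences put only into genes well above the floor, so recovery near the floor was not tested. Alternatives covered scaling, floor, probes, chromosome medians and the fold counted. Python 3.11.15, numpy 2.4.6 and pandas 2.3.3 were used.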

Additional observations from a re-analysis of the deposited data

How the results depend on the processing

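The median of the 42 pathway genes, -0.01, turned sign with the values as deposited (0.13) and with a loess trend removed (0.0195). It also turned with chromosome medians removed (0.013), as did that of the targets (0.0043). With no floor the pathway median was 0.0046, but over all 62 genes, so it is not a recomputation for the 42. With the floor at the 25th percentile 56 pathway genes were measured, 8 at least 2-fold higher and 8 lower (8.66% and 7.89% of all measured genes). At that floor 5 targets were higher and 10 lower. With the floor at the 75th percentile 14 pathway genes were measured, 1 higher and 0 lower (2.61% and 2.19% of all measured genes). At that floor 2 other pathway genes were lower, and 1 target was higher and 5 lower, with a target median of -0.71. With no floor 8 pathway genes were higher and 12 lower, 1 other pathway gene was higher and 8 lower, and 5 targets were higher and 10 lower (11% and 10.3% of all named genes). A pseudocount gave 3 pathway genes higher and 2 lower (4.53% and 4.13% of all measured genes). Removing chromosome medians gave 6 higher, with Bmp10 added, and 2 lower, Grem1 and Nog (6.36% and 5.73% of all measured genes). At 1.5-fold 10 pathway genes were higher and 8 lower (15.8% and 14.8% of all measured genes), 5 other pathway genes were higher and 6 lower, and 7 targets were higher and 9 lower. At 3-fold 1 pathway gene was higher and 1 lower (2.23% and 1.86% of all measured genes). Centring on the median above the floor changed no pathway gene's call. Every pathway gene has 1 probe, so the probe settings could not change their calls. No paired analysis was possible because each genotype has 1 array, and for the same reason no replicate could be left out. Signal near the floor limits the 15 bounds, and the 20 genes below the floor on both arrays were not compared.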
